A study of Mesocricetus auratus with 14 samples.

Results

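The genes described here build, cut and protect the extracellular matrix of the liver. They comprise the collagen chains, the laminin chains, the matrix metalloproteinases, the tissue inhibitors of metalloproteinases (TIMPs) and the ADAMTS family. They were chosen by symbol, with earlier results of these data known. Of the 10023 genes with a symbol in the authors' table, 51 carried such a name. By role, 21 are collagen chains, 8 are laminin chains, 8 are metalloproteinases, 3 are TIMPs, 9 are ADAMTS proteases and 2 are ADAMTS-like genes. All 51 passed the filter on low counts, as did 10011 of those 10023 genes, so that none of the 51 was left out of the tests. Matrix genes without a row in that table were not examined.

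RNA was sequenced from the livers of golden hamsters (Mesocricetus auratus), which all received a high-fat diet. In 7 samples the treatment was labelled control and in 7 it was DC371739, a compound referred to here by its code. The sources used here give no strain, age, sex, dose, route or duration. Whether each sample came from its own animal is not stated either, and the p-values therefore reflect the variation among samples, part of which may be technical.

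Collagens are trimers of chains wound into a triple helix. Fibrillar collagens give tissue its tensile strength, and collagen IV forms the sheet of basement membranes together with laminins, which are trimers of an alpha, a beta and a gamma chain. Metalloproteinases cut these proteins outside the cell, TIMPs bind and block the metalloproteinases, and several ADAMTS proteases trim procollagens or cut proteoglycans. In the liver much of this matrix is made by hepatic stellate cells, fibroblasts and endothelial cells, and its build-up is the hallmark of fibrosis.

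Each library held 13672589 to 23948628 counts. The 3 deepest libraries (22152239 to 23948628 counts), which were DC371739 replicate 7 and control replicates 6 and 7, lay apart from the other 11 on the first principal component of all tested genes (33.3% of the variance, scores of 41.6 to 46.8 against -30.6 to -0.97). Each result is therefore given over all 14 libraries, in a class-adjusted fit that adds a term for library class (the 3 deeper against the 11 shallower), and among the 11 shallower libraries alone (5 control, 6 DC371739). These fits share their libraries and do not support one another independently. The 9 tested hepatocyte markers summed to 110554 to 145685 CPM (a count as a share of the scaled library total, times 1e+06) in the control and 115561 to 132394 CPM in the DC371739 libraries, so all 14 hold the markers of liver tissue.

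Over all 14 libraries, Timp1, Adamts2 and Lama4 rose with DC371739 and no matrix gene fell, in edgeR's quasi-likelihood test at an adjusted p under 0.05 (Benjamini-Hochberg over all 12166 genes tested). The 3 of 51 stand beside 1.24% of all tested genes that rose and 0.608% that fell. At an unadjusted p under 0.05, 20 matrix genes were higher and 1 was lower, where 10.8% of all tested genes were higher and 9.60% lower; the unadjusted counts given below for each role have these shares as their background. DESeq2 called 11 higher and 1 lower, against 4.35% and 2.83% of all genes to which it gave an adjusted p. Limma-voom with sample quality weights called 19 and 1, against 11.6% and 10.9% of all genes. Of the 51 log2 fold changes, 43 were positive and 8 negative, while 46.6% of all tested genes had a positive one. The median was 0.41 over the matrix genes and -0.02 over all genes tested. In bulk tissue, more cells of a type and more RNA per cell cannot be told apart.

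In the class-adjusted fit, 10 matrix genes passed as higher and 1 as lower, against 5.62% and 6.70% of all genes. Among the 11 shallower libraries, 14 passed as higher and 1 as lower, against 11% and 10.5%. The share of positive fold changes was 44 of 51 in each of these fits, where all genes stood at 49.2% and 50.7%. The medians of the matrix genes were 0.34 and 0.40, beside -0.0046 and 0.0051 over all genes. All 11 genes that passed in the class-adjusted fit also passed among the shallower libraries, and 4 more, among them Adamts20, Col4a1 and Col6a5, passed only there. In none of the 3 fits did 36 of the 51 pass, and 48 kept 1 sign in all of them.

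**Figure D1:**
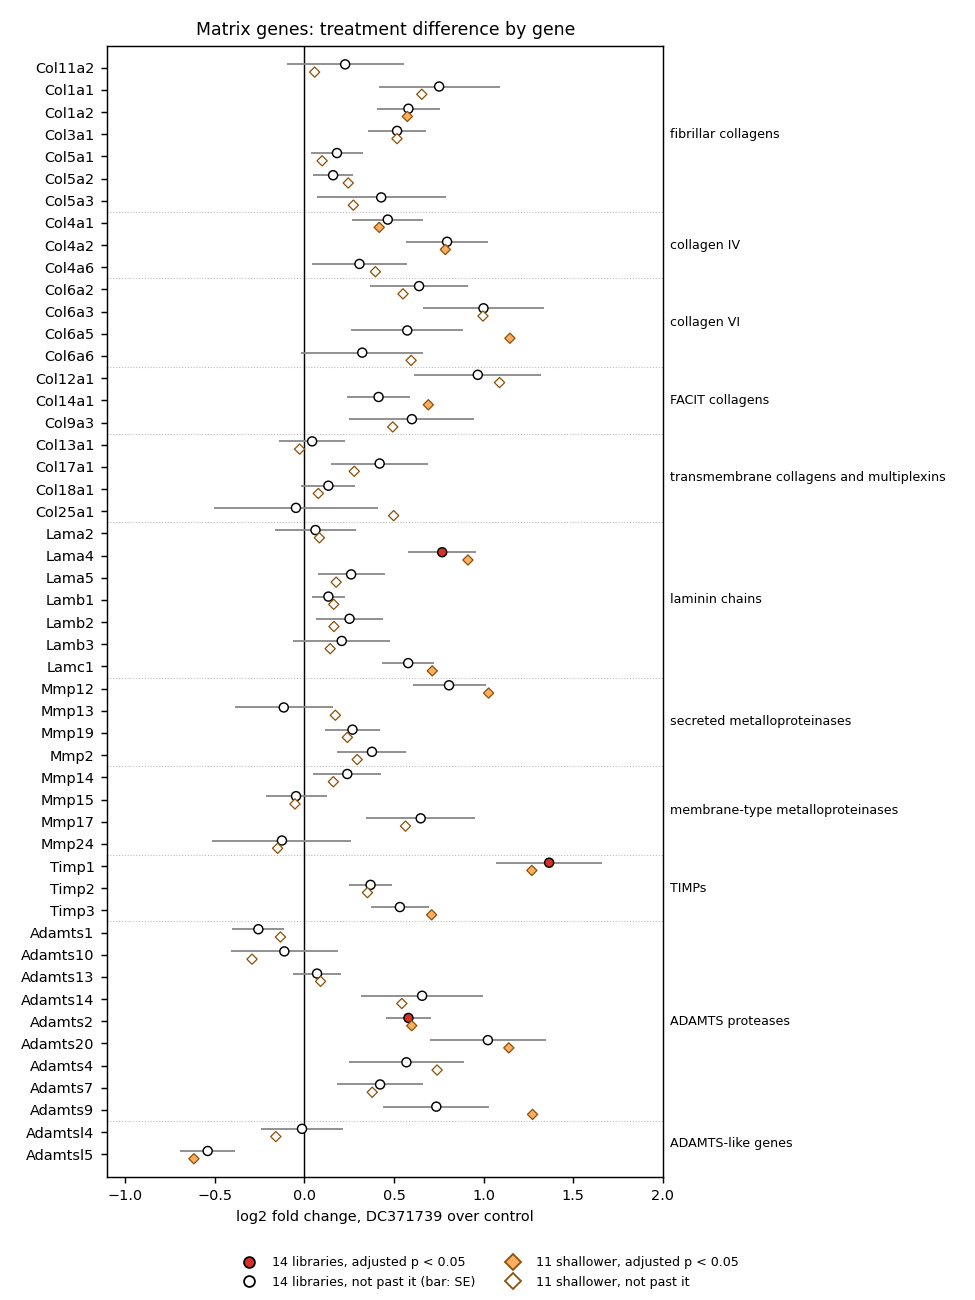
Log2 fold change of 50 of the 51 matrix genes (horizontal axis, DC371739 over control), grouped by role; circles show the fit of all 14 libraries with its standard error as a bar, diamonds the fit of the 11 shallower libraries, and filled symbols an adjusted p under 0.05. Filled circles mark Timp1, Adamts2 and Lama4; among the diamonds filled to the right of 0 is that of Col4a2, and 1, Adamtsl5, is filled to the left.

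No matrix gene separated the groups completely. For 0 of 51 did the 7 DC371739 libraries all lie above every control library (0.296% of all genes), and for 0 did they all lie below (0.403%). For 14 of 51 they all lay above the control median, against 10.1% of all genes. Among the 11 shallower libraries, the groups did not overlap for 5 of 51, namely Col4a2, Col14a1, Lama4, Adamts2 and Adamts9, all higher with DC371739 (4.07% of all genes), nor for Adamtsl5, which was lower (5.27%).

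The calls over all 14 libraries depended on single libraries. Without control replicate 1, 2 or 3, or without DC371739 replicate 2, 3, 5 or 6, the number of matrix genes that rose was 0. Calls were fewer over all genes as well in those fits, where 18 to 77 genes rose against 151 over all 14 libraries. The edgeR adjusted p of Timp1, Adamts2 and Lama4 reached at most 0.0780, 0.0810 and 0.111 over all fits that leave out 1 library. Lama4 also lost its call without control replicate 4 or 5 or DC371739 replicate 1. The number that rose was 5 without control replicate 7 (with 1 that fell), where 2.68% of all genes rose and 1.75% fell. It was 6 without DC371739 replicate 4 (1.54% of all genes) and 11 without DC371739 replicate 7 (5.03% of all genes). Of the 15 genes called among the 11 shallower libraries, 11 kept their call whichever of these was left out. The others included Col1a2, Col4a1 and Adamts20, with adjusted p of up to 0.107, 0.0787 and 0.120. Each of these was lost without control replicate 2 or DC371739 replicate 5. Further losses came without control replicate 1 (Col1a2, Adamts20), 3 (Col1a2, Col4a1, Adamts20) or 5 (Adamts20) and without DC371739 replicate 2 or 3 (Col1a2, Col4a1, Adamts20) or 6 (Adamts20).

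Levels per length differed widely between the genes. FPKM, the count scaled by exon length and library depth, averaged 141 for Col18a1 over the 14 libraries (93.2 to 175), the highest of the 51. Mmp12 followed with 85.0 FPKM (45.1 to 141) and Col3a1 with 43.6 (29.6 to 69.9), the ranges of neighbours in this order overlapping. Next came Mmp14 (21.7), Col4a1 (19.6), Mmp15 (18.3), Mmp13 (16.1), Mmp19 (11.5) and Col5a1 (10.5). Of the 51 genes, 33 averaged at least 1 FPKM and 18 less. The lowest were Col12a1 (0.095), Col6a6 (0.148) and Col4a6 (0.181), and 10 genes had fewer than 10 counts in at least 1 library. None had a count of 0 in any library.

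**Figure D2:**
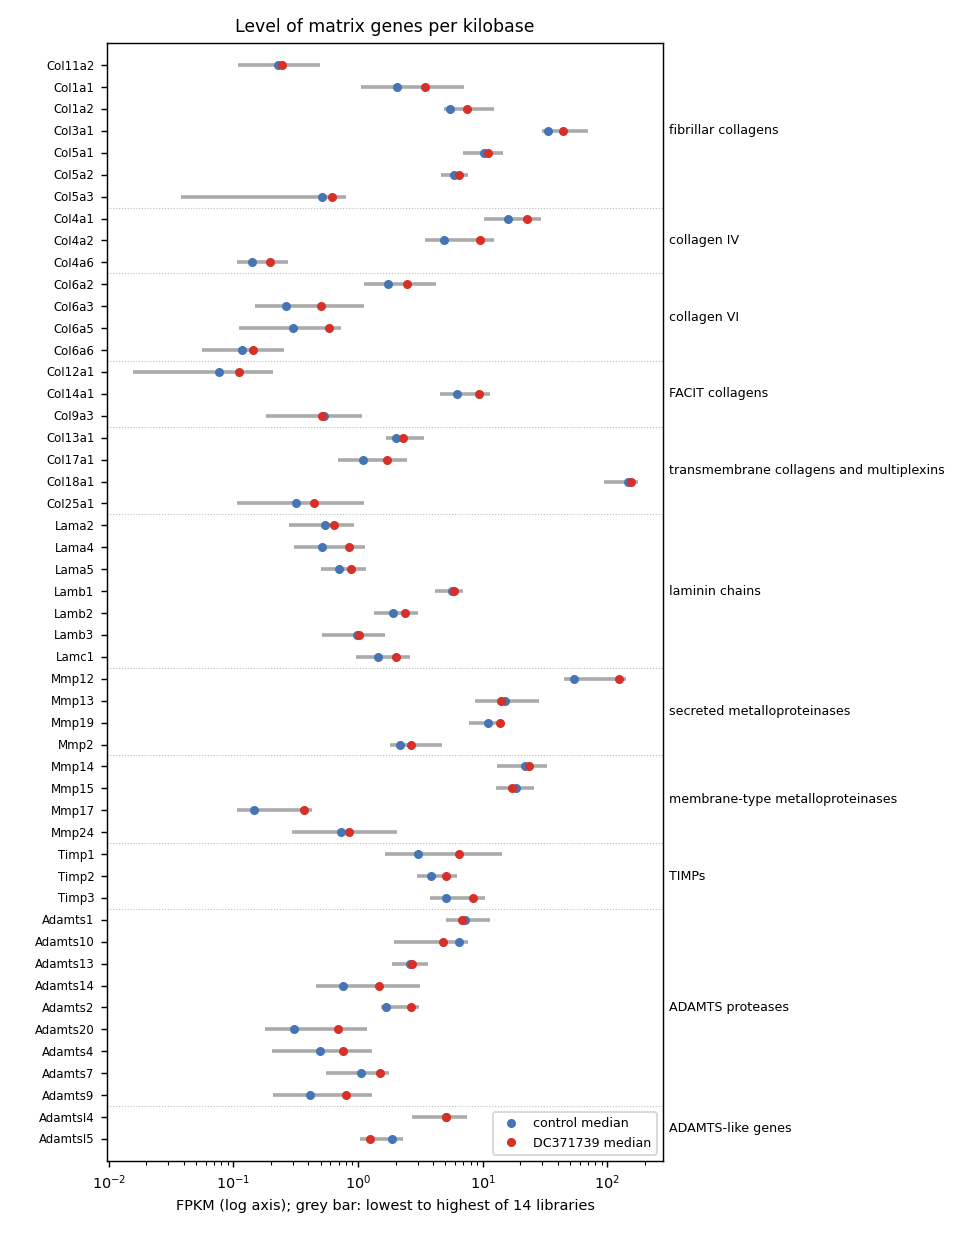
FPKM of 50 of the matrix genes on a log axis, grouped by role; grey bars run from the lowest to the highest of 14 libraries, and blue and red points are the medians of 7 control and 7 DC371739 libraries. Col18a1 lies highest at a mean of 141 FPKM and Col12a1 lowest at 0.095.

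The fibrillar collagens form the cable-like fibrils of connective tissue. None of the 7 chains passed over all 14 libraries, although all 7 fold changes were positive (median 0.43) and 3 had an unadjusted p under 0.05. Col1a2 (KB708266.1, 1058591 to 1092826, plus strand), the second chain of collagen I, measured 17.1, 19.4 and 28.2 CPM (lowest, median and highest) in control and 21.4, 26.2 and 43.0 CPM in DC371739 libraries. All 7 treated values lay above the control median and 3, those of replicates 2, 3 and 5, above every control. Its log2 fold change was 0.58 (SE 0.18, edgeR adjusted p = 0.0831), and it passed in the class-adjusted fit (0.51, adjusted p = 0.0432) and among the shallower libraries (0.57, adjusted p = 0.0436).

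Col3a1, the chain of collagen III and the most abundant fibrillar chain, measured 125, 141 and 198 CPM in control and 158, 186 and 293 CPM in DC371739 libraries. The same replicates 2, 3 and 5 lay above every control, at 267, 267 and 293 CPM. The fold change of 0.52 (SE 0.16) did not pass in any of the 3 fits (edgeR adjusted p of 0.0944, 0.0589 and 0.0767). Col1a1, the main chain of collagen I, varied widely, with 4.64, 9.18 and 17.0 CPM in control and 6.69, 15.4 and 31.3 CPM in DC371739 libraries and a fold change of 0.75 (SE 0.34, adjusted p = 0.221). Its lowest values in each group, 4.64, 7.01 and 6.69 CPM, were those of the 3 deeper libraries.

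Collagen V helps to set the width of fibrils. Col5a1 stood at 36.0 to 60.5 CPM in control and 40.7 to 76.3 CPM in treated libraries (0.18, SE 0.15), and Col5a2 at 22.5 to 33.8 and 24.0 to 37.0 CPM (0.16, SE 0.11). Neither passed in any fit (edgeR adjusted p from 0.133 to 0.510). The 2 low fibrillar chains, Col5a3 and Col11a2, had fold changes of 0.43 (SE 0.36) and 0.23 (SE 0.33). Col5a3 had 3 counts in control replicate 7.

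Collagen IV makes the network of basement membranes, and its common form joins the products of Col4a1 and Col4a2. The genes lie head to head on scaffold KB708199.1, Col4a2 at 74338 to 206162 on the minus strand and Col4a1 at 207028 to 319891 on the plus strand. Their 5′ ends are 866 bases apart with no gene between. Col4a2 measured 12.5, 18.0 and 28.4 CPM in control and 14.6, 35.2 and 45.6 CPM in DC371739 libraries. DC371739 replicates 1 to 6 lay between 30.0 and 45.6 CPM, all above every control, and only the deeper replicate 7 lay within the control range. The log2 fold change was 0.80 (SE 0.23, edgeR adjusted p = 0.0708). It passed in the class-adjusted fit (0.63, SE 0.16, adjusted p = 0.0226) and among the shallower libraries (0.79, SE 0.15, adjusted p = 0.0050).

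Col4a1 measured 39.9, 63.2 and 85.9 CPM in control and 46.0, 90.3 and 114 CPM in DC371739 libraries, so the groups overlapped more. Its fold change was 0.46 (SE 0.20, edgeR adjusted p = 0.197), and it passed only among the shallower libraries (0.42, adjusted p = 0.0284). The ratio of Col4a2 to Col4a1 in FPKM was 0.303, 0.333 and 0.366 in control and 0.337, 0.420 and 0.438 in DC371739 libraries. In 6 of 7 DC371739 libraries it exceeded every control, replicate 7 being the exception at 0.337. This ratio was chosen after its values were seen, and no test was made of it. The ratio of Col1a2 to Col1a1 overlapped between the groups, at 1.59 to 4.73 in control and 1.76 to 4.10 in DC371739 libraries. Col4a6, a chain of restricted basement membranes, stood at 0.42 to 1.05 and 0.47 to 1.07 CPM (0.31, SE 0.26).

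**Figure D3:**
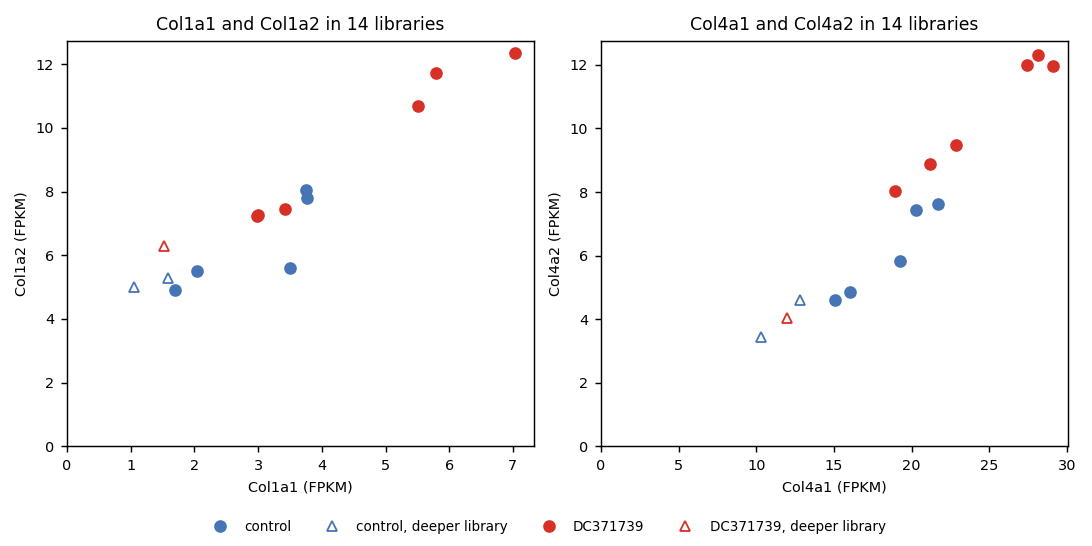
FPKM of the paired chains Col1a1 and Col1a2 (left) and Col4a1 and Col4a2 (right), 1 point per library; blue is control, red DC371739, and open triangles are the 3 deeper libraries. On the right, 6 DC371739 libraries have ratios above the control range of 0.303 to 0.366, and the deeper DC371739 library, at 0.337, lies among the controls.

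Collagen VI forms beaded filaments around cells. Its 4 measured chains all had positive fold changes (median 0.61), with none past the threshold over all 14 libraries and 2 at an unadjusted p under 0.05. Col6a3 measured 0.78, 1.37 and 3.18 CPM in control and 1.72, 2.67 and 5.84 CPM in DC371739 libraries. All 7 treated values lay above the control median, and replicates 2, 3 and 5 above every control. The fold change was 1.0 (SE 0.34, edgeR adjusted p = 0.112), and it stayed short of the threshold in the class-adjusted fit (adjusted p = 0.0729) and among the shallower libraries (0.0597). Col6a2 stood at 3.31, 5.28 and 9.16 against 4.40, 7.40 and 12.8 CPM (0.64, SE 0.27, adjusted p = 0.199).

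Col6a5 and Col6a6 are neighbouring genes that encode alternative chains of collagen VI. Col6a5 went from 0.66, 1.77 and 3.96 to 1.98, 3.49 and 4.30 CPM. The controls were split: the deeper replicates 6 and 7 stood at 3.41 and 3.96 CPM and the other 5 at 0.66 to 2.38. Its fold change was 0.57 over all 14 libraries (SE 0.31, edgeR adjusted p = 0.312) and 1.15 among the shallower ones (SE 0.27, adjusted p = 0.0105). Col6a6 stood at 0.30 to 1.34 and 0.41 to 1.32 CPM (0.32, SE 0.34).

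FACIT collagens do not form fibrils but attach to their surface. All 3 had positive fold changes and none passed over all 14 libraries, with 2 at an unadjusted p under 0.05. Col14a1 measured 18.5, 25.5 and 45.1 CPM in control and 30.3, 38.3 and 47.3 CPM in DC371739 libraries. Here too the deeper controls stood apart, at 41.1 and 45.1 CPM, against 18.5 to 25.6 CPM in the other 5. All 7 treated libraries lay above those 5. The fold change was 0.41 over all libraries (SE 0.18, edgeR adjusted p = 0.201), 0.56 in the class-adjusted fit (SE 0.12, adjusted p = 0.0123) and 0.69 among the shallower ones (SE 0.12, adjusted p = 0.0022). Col12a1 and Col9a3 were low, with fold changes of 0.97 (SE 0.35, adjusted p = 0.140) and 0.60 (SE 0.35, adjusted p = 0.342).

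The transmembrane collagens and the multiplexin Col18a1 had a median fold change of 0.09, with 0 of 4 past the threshold in any fit and 0 at an unadjusted p under 0.05 over all 14 libraries. Col18a1, a basement membrane collagen whose end fragment is endostatin, measured 506, 772 and 813 CPM in control and 477, 804 and 927 CPM in DC371739 libraries. The 3 deeper libraries were its lowest, at 477 to 513 CPM. Its fold change was 0.13 (SE 0.15, edgeR adjusted p = 0.660). The gene shares 14 exon bases with Slc19a1, which is on the other strand. Col17a1 and Col13a1 had fold changes of 0.42 (SE 0.27) and 0.04 (SE 0.19), and Col25a1, at 0.17 to 1.78 CPM in control, had -0.05 (SE 0.46) over all libraries and 0.50 (SE 0.38) among the shallower ones.

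Among the laminins, which anchor cells to basement membranes, all 8 chains had positive fold changes (median 0.26), 1 rose over all 14 libraries and none fell (3 at an unadjusted p under 0.05, all higher). Lama4 (KB708165.1, 4714925 to 4854377, minus strand), the alpha chain typical of vessel walls, measured 1.14, 1.92 and 2.47 CPM in control and 2.34, 3.15 and 4.25 CPM in DC371739 libraries. Replicate 4 of the treated group, at 2.34 CPM, lay within the control range and the other 6 above it. The log2 fold change was 0.77 (SE 0.19, edgeR adjusted p = 0.0469). It was 0.78 in the class-adjusted fit (adjusted p = 0.0201) and 0.91 among the shallower libraries (adjusted p = 0.0096). Its counts were 15 to 72 per library, which limits the precision of single values.

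Lamc1, the gamma chain of most laminins, measured 5.81, 8.78 and 10.2 CPM in control and 8.80, 11.8 and 15.6 CPM in DC371739 libraries. Again 6 of 7 treated libraries exceeded every control and replicate 4 did not. The fold change of 0.58 (SE 0.15) had an edgeR adjusted p of 0.0512, and it passed in the class-adjusted fit (0.62, adjusted p = 0.0125) and among the shallower libraries (0.71, adjusted p = 0.0068).

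The remaining laminin chains had smaller fold changes. Lamb1, a widespread beta chain and per length the most abundant laminin here at 5.73 FPKM, stood at 18.8 to 27.0 CPM in control and 23.1 to 31.4 CPM in treated libraries (0.13, SE 0.09, edgeR adjusted p = 0.439). Lamb2 had 0.25 (SE 0.19), Lama5 0.26 (SE 0.19), Lamb3 0.21 (SE 0.27) and Lama2 0.06 (SE 0.23). None of these 5 passed in any of the 3 fits.

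Of the secreted metalloproteinases, none passed over all 14 libraries, with 1 of 4 at an unadjusted p under 0.05. Mmp12 (KB708198.1, 5413925 to 5424544, plus strand), the elastase of macrophages, was per length the most abundant protease of the 51. It measured 59.5, 70.9 and 115 CPM in control and 73.7, 159 and 185 CPM in DC371739 libraries. In DC371739 replicates 1, 2, 3, 6 and 7 it stood at 117 to 185 CPM, above every control, while replicates 4 and 5 lay within the control range. The log2 fold change was 0.81 (SE 0.20, edgeR adjusted p = 0.0512). It was 0.92 in the class-adjusted fit (SE 0.18, adjusted p = 0.0105) and 1.03 among the shallower libraries (SE 0.22, adjusted p = 0.0089). The 2 deeper controls, at 109 and 115 CPM, were the highest of their group.

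Mmp13, a collagenase that cuts fibrillar collagen, lies next to Mmp12 on the same scaffold, from 5361155 to 5370419. It measured 16.9, 29.4 and 54.8 CPM in control and 21.9, 27.1 and 45.9 CPM in DC371739 libraries, and every treated value lay within the control range. Its fold change was -0.12 (SE 0.27, edgeR adjusted p = 0.853) over all libraries and 0.17 (SE 0.33) among the shallower ones. Whether the difference of Mmp12 differed from that of Mmp13 was not tested. The FPKM ratio of Mmp12 to Mmp13, chosen after its values were seen, was 1.90 to 6.07 in control and 3.48 to 11.6 in DC371739 libraries. Mmp19 stood at 12.4 to 18.9 and 11.9 to 23.1 CPM (0.27, SE 0.15). Mmp2, a gelatinase, stood at 4.10 to 8.13 and 4.55 to 10.7 CPM (0.38, SE 0.19). Both fell short of the threshold in all 3 fits.

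The membrane-type metalloproteinases act at the cell surface, and Mmp14 is best known for activating the proform of Mmp2. None of the 4 passed in any fit, with 2 positive and 2 negative fold changes and 1 of 4 at an unadjusted p under 0.05 over all 14 libraries. Mmp14 measured 27.1, 46.5 and 51.9 CPM in control and 28.2, 50.4 and 69.8 CPM in DC371739 libraries (0.24, SE 0.19). The 3 deeper libraries held its 3 lowest values, 27.1 to 28.6 CPM. Mmp15 stood at 39.5 to 75.8 and 37.4 to 74.3 CPM (-0.05, SE 0.17). Mmp17 was low: 5 to 20 counts per library gave 0.29, 0.40 and 1.16 CPM in control and 0.75, 1.0 and 1.03 CPM in treated libraries (0.65, SE 0.30, edgeR adjusted p = 0.243). Mmp24 had a fold change of -0.13 (SE 0.39).

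TIMPs block metalloproteinases by binding their active site. All 3 had positive fold changes and an unadjusted p under 0.05, and for all 3 the 7 treated libraries lay above the control median. Timp1 (KB708324.1, 411231 to 415719, minus strand), which many cell types induce in inflammation and fibrosis, had the largest fold change of the 51 over all 14 libraries, and it alone of the 3 passed there. It measured 0.99, 1.80 and 2.81 CPM in control and 2.03, 3.74 and 8.38 CPM in DC371739 libraries, from 17 to 142 counts. DC371739 replicate 5 was highest, replicates 2 and 3 followed at 4.95 and 5.0 CPM, and replicate 4 alone lay within the control range. The log2 fold change was 1.36 (SE 0.29, edgeR adjusted p = 0.0322). It was 1.32 in the class-adjusted fit (SE 0.28, adjusted p = 0.0121) and 1.27 among the shallower libraries (SE 0.34, adjusted p = 0.0182). Timp1 lies within Syn1, a gene of the other strand with a mean of 18.6 counts, and shares no exon base with it.

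Timp3, which is held in the matrix and also inhibits ADAMTS proteases, was the most abundant TIMP per length (7.06 FPKM). It measured 13.2, 17.7 and 26.0 CPM in control and 19.1, 28.4 and 36.1 CPM in DC371739 libraries. The controls again held their highest values, 26.0 and 24.7 CPM, in the 2 deeper libraries. The fold change of 0.53 (SE 0.16, edgeR adjusted p = 0.0871) passed in the class-adjusted fit (0.60, adjusted p = 0.0230) and among the shallower libraries (0.71, adjusted p = 0.0125). Timp2, a partner of Mmp14 in the activation of Mmp2, measured 8.48, 11.1 and 12.8 CPM in control and 11.5, 14.5 and 17.9 CPM in treated libraries. Its fold change of 0.37 (SE 0.12) fell short in all 3 fits (adjusted p of 0.106, 0.0523 and 0.0628).

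**Figure D4:**
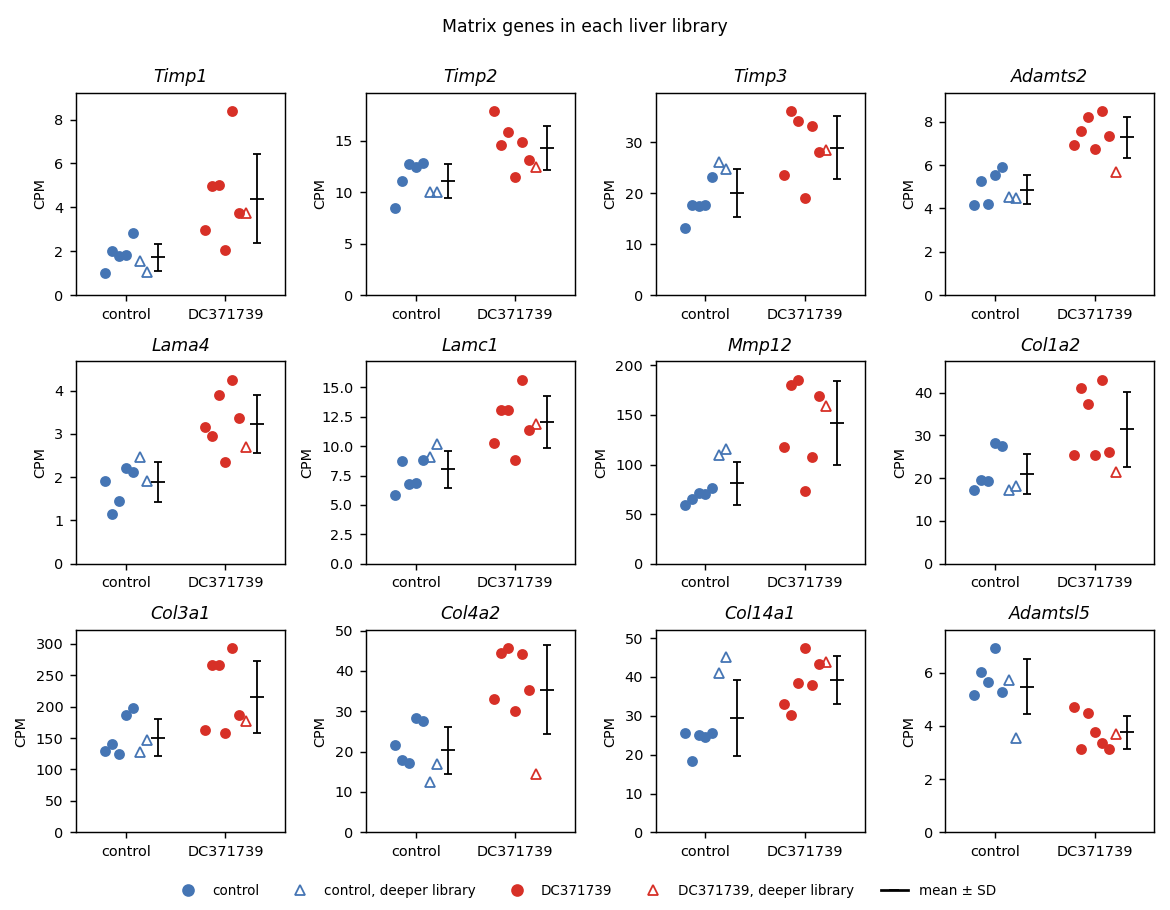
CPM of 12 matrix genes in each library (vertical axes from 0), with control in blue, DC371739 in red, the 3 deeper libraries as open triangles and bars for the mean ± SD of 7 libraries. Timp1, Lama4 and Lamc1 each have 6 of 7 DC371739 libraries above every control, and Col14a1 and Mmp12 have their highest controls in the 2 deeper libraries.

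Of 9 ADAMTS proteases, 1 rose over all 14 libraries and none fell (3 at an unadjusted p under 0.05, all higher). Adamts2 (KB708157.1, 1089085 to 1293166, minus strand) removes the amino-terminal propeptide of fibrillar procollagens. It measured 4.18, 4.54 and 5.90 CPM in control and 5.68, 7.35 and 8.50 CPM in DC371739 libraries. DC371739 replicates 1 to 6, at 6.77 to 8.50 CPM, exceeded every control, and only the deeper replicate 7 (5.68 CPM) did not. It still lay above both deeper controls, at 4.54 and 4.49 CPM. The fold change was 0.58 (SE 0.12, edgeR adjusted p = 0.0311), 0.54 in the class-adjusted fit (adjusted p = 0.0103) and 0.60 among the shallower libraries (adjusted p = 0.0064). Adamts14, of the same procollagen-trimming group, stood at 1.68 to 4.82 and 1.29 to 8.73 CPM (0.66, SE 0.34, adjusted p = 0.288).

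Adamts9 and Adamts20 are closely related and cut the proteoglycan versican. Adamts9 measured 0.99, 1.97 and 4.45 CPM in control and 2.26, 3.79 and 6.20 CPM in DC371739 libraries. The deeper controls stood at 4.45 and 3.87 CPM and the other 5 at 0.99 to 2.00. Its fold change was 0.74 over all libraries (SE 0.30, edgeR adjusted p = 0.177), 0.97 in the class-adjusted fit (SE 0.26, adjusted p = 0.0261) and 1.27 among the shallower ones (SE 0.26, adjusted p = 0.0048). Adamts20 stood at 0.80, 1.33 and 2.38 against 0.98, 3.05 and 5.24 CPM (1.02, SE 0.32, adjusted p = 0.0946), and passed only among the shallower libraries (adjusted p = 0.0490).

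Adamts1, which cuts versican and aggrecan, was the most abundant of the family per length (7.18 FPKM). It stood at 23.2, 27.9 and 43.2 CPM in control and 19.7, 26.5 and 30.7 CPM in treated libraries, with a fold change of -0.26 (SE 0.15, edgeR adjusted p = 0.330). Adamts10 stood at 5.96 to 23.9 and 7.18 to 21.9 CPM (-0.11, SE 0.30), its 3 lowest values being those of the deeper libraries. Adamts13, which cuts von Willebrand factor and is made largely in the liver, stood at 7.25 to 10.9 and 6.56 to 13.0 CPM (0.07, SE 0.14). Adamts4 and Adamts7 had fold changes of 0.57 (SE 0.32) and 0.42 (SE 0.24). None of these 5 passed in any of the 3 fits. Adamts7 shares 28 exon bases with Tbc1d2b on the other strand.

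ADAMTS-like proteins lack the protease domain, and several bind fibrillin microfibrils. Adamtsl5 (KB708274.1, 1868117 to 1875824, plus strand) measured 3.53, 5.64 and 6.91 CPM in control and 3.12, 3.70 and 4.72 CPM in DC371739 libraries. All 7 treated values lay below the control median, and among the shallower libraries all 6 lay below the lowest control (5.17 CPM). Control replicate 7, a deeper library, held the low value of 3.53 CPM. The fold change was -0.54 (SE 0.15, edgeR adjusted p = 0.0690), -0.56 in the class-adjusted fit (adjusted p = 0.0236) and -0.62 among the shallower libraries (adjusted p = 0.0114). Adamtsl4 had a fold change of -0.01 (SE 0.23).

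The treated libraries differed among themselves. Matrix genes above every control numbered 30, 24, 29 and 20 of 51 in DC371739 replicates 2, 3, 5 and 6, where 15%, 16.9%, 14.2% and 17.1% of all genes were. They numbered 12, 11 and 8 in replicates 1, 4 and 7 (11.2%, 12.9% and 11% of all genes). DC371739 replicate 5 held the highest value of its group for 19 of the 51 and replicate 7 the lowest for 24, where over all genes these shares were 10.1% and 30.1%. The median difference from the control mean was 0.76 on the log2 scale in replicate 5 and 0.03 in replicate 7. Among the controls, replicates 4 and 5 were highest of their group for 14 and 11 of the 51, and for 12.2% and 10.4% of all genes.

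**Figure D5:**
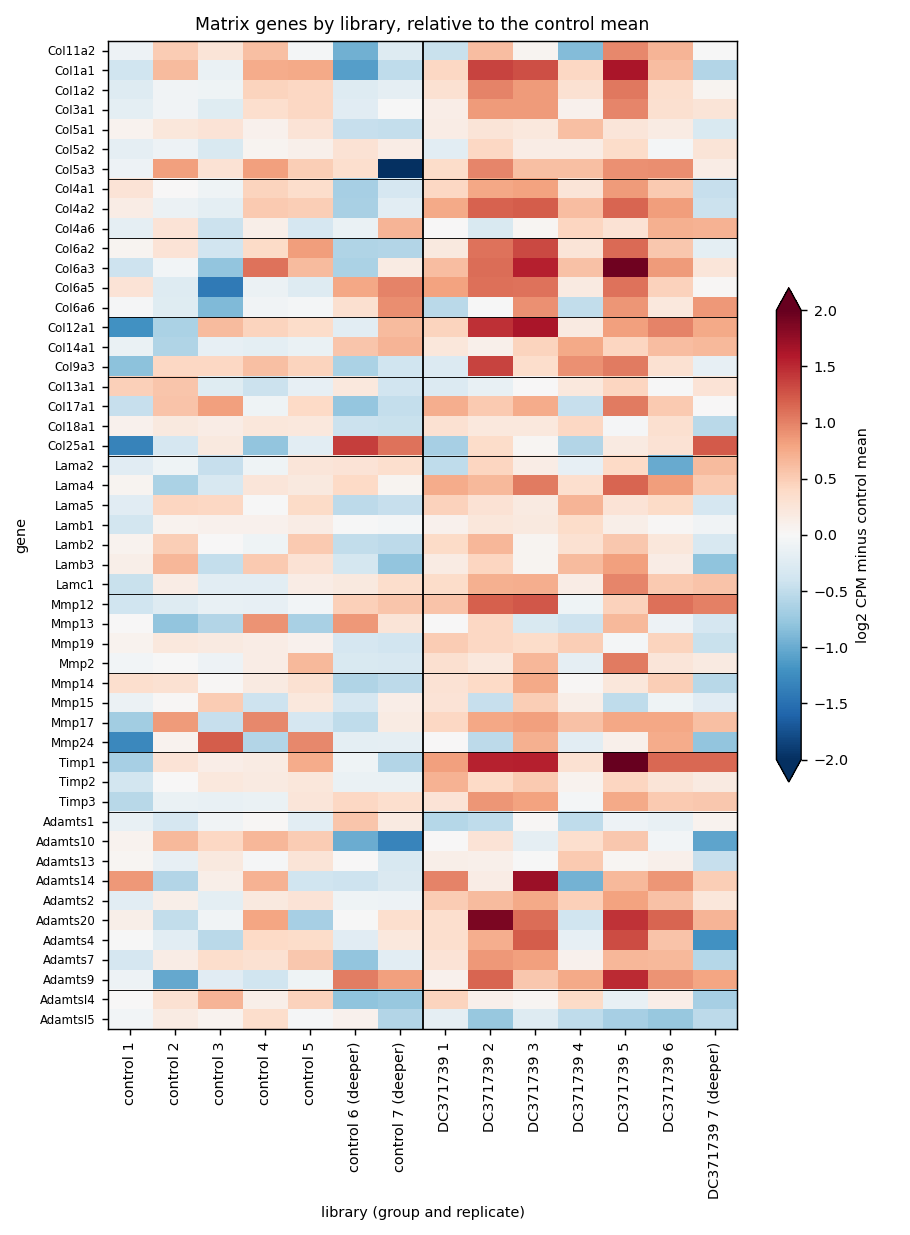
Log2 CPM of 50 of the 51 matrix genes minus the mean of the 7 controls, 1 row per gene in order of role and 1 column per library, with red higher and blue lower and the colour range ending at ± 2. DC371739 replicates 2, 3 and 5 are red across most rows, and replicates 4 and 7 are paler.

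Library class went with the level of some matrix genes in either group. For 11 of 51 all 3 deeper libraries lay below all 11 shallower ones (14.2% of all genes): Col1a1, Col5a1, Col4a1, Col4a2, Col18a1, Lama5, Lamb2, Mmp19, Mmp14, Adamts10 and Adamtsl4. For 2, Col25a1 and Adamts1, they all lay above (13.8%). For the other 38 the classes overlapped.

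Genes that act on or with these proteins were counted in 5 lists. Of all genes, 1.24% rose and 0.608% fell over all 14 libraries. The shares were 5.62% and 6.70% in the class-adjusted fit, and 11% and 10.5% among the shallower libraries. These shares are the background of the counts below, as are 10.8% higher and 9.60% lower at an unadjusted p under 0.05. Of 24 other matrix glycoproteins and proteoglycans, 1 rose over all 14 libraries and none fell, with a median fold change of 0.33. In the class-adjusted fit 8 rose, and among the shallower libraries 8. Hspg2, the basement membrane proteoglycan perlecan, measured 14.4, 18.4 and 22.7 CPM in control and 16.4, 29.5 and 36.5 CPM in DC371739 libraries (0.64, SE 0.15, edgeR adjusted p = 0.0405). Leaving out any of 12 libraries (all but replicate 7 of either group) ended this call, with an adjusted p of up to 0.0989. Tnc, or tenascin C, and Fmod, or fibromodulin, had fold changes of 1.38 (SE 0.37, adjusted p = 0.0580) and 0.72 (SE 0.20, adjusted p = 0.0662), and both passed in the other fits.

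Of 16 other matrix proteases and inhibitors, 3 cathepsins of lysosomes rose and none fell over all 14 libraries, and 4 and 5 rose in the other fits. Ctss went from 34.1, 42.2 and 48.3 to 45.2, 77.8 and 91.3 CPM (0.77, SE 0.13, edgeR adjusted p = 0.0155). Ctsk, a collagen-cutting cathepsin, went from 15.9, 20.4 and 25.8 to 21.0, 42.7 and 46.9 CPM (0.88, SE 0.15, adjusted p = 0.0155). Ctsb went from 324, 448 and 532 to 565, 659 and 731 CPM with no overlap of the groups (0.58, SE 0.11, adjusted p = 0.0201). Ctss and Ctsk passed whichever library was left out, and Ctsb failed without replicate 3 or 6 of the DC371739 group, with an adjusted p of 0.0566 or less.

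Of 15 matrix receptors, 1 rose and none fell over all 14 libraries. Cd44, a receptor of hyaluronan, went from 5.70, 6.87 and 9.68 to 6.65, 15.3 and 25.1 CPM (1.08, SE 0.23, edgeR adjusted p = 0.0294). Its adjusted p reached 0.0768, and leaving out DC371739 replicate 2, 3, 5 or 6 or control replicate 1, 2, 3 or 5 ended the call. The integrin chain Itga9 and the collagen receptor Ddr1 stood at 0.72 (adjusted p = 0.0997) and 0.54 (0.124). Itga9 passed in the class-adjusted fit (adjusted p = 0.0421) and among the shallower libraries (0.0068), and Ddr1 in neither (0.0726 and 0.0782). In the class-adjusted fit 2 receptors rose and among the shallower libraries 5.

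Genes that fold, trim and cross-link collagen formed a list of their own. Of 19, none passed over all 14 libraries (4 at an unadjusted p under 0.05), and in the class-adjusted fit and among the shallower libraries none rose and 1 fell. That 1 was P3h1, a prolyl hydroxylase, with -0.32 (edgeR adjusted p = 0.0302) and -0.38 (adjusted p = 0.0136), named after its values were seen. Pcolce2, Loxl1 and Bmp1 had fold changes of 0.84, 0.55 and 0.30 (adjusted p of 0.119, 0.133 and 0.183). Of 17 genes of TGF-beta signalling, the pathway that drives matrix production in fibrosis, none passed over all 14 libraries (5 at an unadjusted p under 0.05). In the class-adjusted fit 1 rose (5.62% of all genes), and among the shallower libraries 2 rose and 1 fell (11% and 10.5% of all genes). Over all 14 libraries, 11 of the 17 fold changes were positive and 6 negative. Smad3 and Tgfbr3 had fold changes of 0.69 (SE 0.23) and 0.62 (SE 0.26), with adjusted p of 0.112 and 0.189. Ccn2, lower at an unadjusted p under 0.05, had -0.62 (SE 0.27, edgeR adjusted p = 0.214). Smad4 rose in both other fits. Among the shallower libraries Smad3 rose (adjusted p = 0.0217) and Smad6 fell (-0.55, adjusted p = 0.0180). Ccn2, Smad4 and Smad6 were named after their values were seen.

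Markers of the cells that make or carry these proteins moved in part with the groups. All 15 stellate cell and fibroblast markers were tested over all 14 libraries, and 1 rose (Myh11). Of their fold changes, 12 were positive and 3 negative (Lrat, Hgf and Colec11). Their summed level was 260 to 325 CPM in control and 311 to 382 CPM in DC371739 libraries. Of 17 macrophage markers 14 were tested, and 2 rose (Laptm5 and Mpeg1). Here 10 fold changes were positive and 4 negative (Cd163, C1qa, C1qb and C1qc), and the sums were 840 to 1264 and 949 to 1448 CPM. Myh11 lost its call without control replicate 1, 2 or 3 or replicate 2, 3 or 6 of the DC371739 group, with an adjusted p of 0.0691 or less. Mpeg1 lost it without control replicate 3 or 5 or replicate 2, 3, 5 or 6 of that group, at 0.0674 or less, and Laptm5 passed in all of these fits. In the class-adjusted fit 2 stellate and 7 macrophage markers rose (5.62% of all genes), and among the shallower libraries 2 and 5 (11% of all genes). Over all 14 libraries 1.24% of all genes rose.

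None of the 13 endothelial markers passed over all 14 libraries (217 to 330 and 267 to 371 CPM). In the class-adjusted fit 2 rose (5.62% of all genes), and among the shallower libraries 5 (11% of all genes). Nor did any of 6 cholangiocyte markers (23.0 to 39.5 and 27.8 to 50.1 CPM), 3 neutrophil markers (5.84 to 9.93 and 8.74 to 14.9 CPM), 7 lymphocyte markers (10.7 to 18.5 and 15.1 to 28.8 CPM) or 9 hepatocyte markers. At an unadjusted p under 0.05 there were 5 endothelial, 0 cholangiocyte, 1 neutrophil, 3 lymphocyte and 2 hepatocyte markers. Of all genes, 10.8% were higher and 9.60% lower at that limit. No tested marker had a count of 0 in any library. DC371739 replicates 2 and 5, which were high for many matrix genes, held the highest summed stellate levels, 382 and 357 CPM. DC371739 replicate 7, low for many matrix genes, is the deeper library of its group. It held 335 CPM of stellate and 1427 CPM of macrophage markers, both above every control. Its endothelial sum of 279 CPM lay within the control range of 217 to 330 CPM. The part of these cell types in the matrix differences was not tested.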

How the data were processed

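The submitters' processing notes name featureCounts 2.0.0, HISAT2 2.2.1 and edgeR. For their order and settings, the strand, the genome build and the annotation: not given in the sources used here. Both a TruSeq and a NEBNext kit are named for every library, per the labels' protocols. Counts in the deposited count table are whole numbers for 22283 Ensembl genes. The authors' second deposited table holds FPKM of 10023 genes with symbols (count over exon length and 1 constant per library, to within 1.3e-07), with the authors' log2 fold change and p-value. In the authors' deposited table the same 3 members had an adjusted p under 0.05.

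Here counts were tested with edgeR 4.0.16 (R 4.3.3), robust quasi-likelihood F-test, TMM scaling, default filter (minimum count 10; 12166 genes, 12249 over the 11 shallower libraries), treatment alone, Benjamini-Hochberg over all genes. CPM were TMM-scaled, and log2 CPM used a prior count of 2. SE is the fold change over the square root of F. Depth was 13672589 to 23948628 counts per library. The closest of 42 pairs of libraries within a group had a chi-square per degree of freedom of 11.4, so none counted as 1 library deposited more than once.

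The members and lists were chosen with earlier results of these data known. Named were called members, in each role the 4 of smallest p and the 2 of highest FPKM, all TIMPs, members called in the other fits, and the 3 of smallest p per partner list; the other 8 members are named to account for the rest. Some genes that the rule takes are left out of the text and plots and not reported here. Coordinates are those of the count table. No sequences were used here, so the search for promoter motifs was not run. Alternatives were other scalings and filters, DESeq2 1.42.0, limma 3.58.1 (voom with sample quality weights, or log2 of FPKM plus 1 or 0.1), a replicate block, a library class term, the 11 shallower libraries, each library left out, and a limit of 1 on the log2 fold change. Leaving out each of the 11 shallower libraries was added after seeing the data. Markers without a row in the symbol table were not analysed here.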

Additional observations from a re-analysis of the deposited data

Results flagged for a closer look

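In 3 of 86 groups of 7 libraries, 1 library lay far from the others by Dixon's criterion, which chance alone meets in about 1 of 20 groups. The groups were those of the matrix genes taken by the naming rule, and the other matrix genes were not screened. Col25a1 stood at 1.59 CPM in DC371739 replicate 7, a deeper library, with the next value at 0.825. Lamb1 stood at 18.8 CPM in control replicate 1, with the next at 23.7. Mmp2 stood at 8.13 CPM in control replicate 5, with the next at 5.74. None of these 3 genes passed the test in any of the 3 fits.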

How the results depend on the processing

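The number of matrix genes that rose, 3 over all 14 libraries (151 of all genes), was 5 with upper-quartile scaling (223 of all genes), 5 with a filter of 1 CPM in 7 libraries (44 tested; 175), 11 with DESeq2 (509), 19 with limma-voom with sample quality weights (1406), 10 in the class-adjusted fit (684), 14 among the 11 shallower libraries (1353) and 1 with a limit of 1 on the log2 fold change. The number that fell, 0, was 1 with DESeq2, voom, the class-adjusted fit and the shallower libraries. Leaving out each library gave 0 to 11 that rose (18 to 615 of all genes) and 0 to 1 that fell, and among the 11 shallower libraries 10 to 19 and 1 to 2. The replicate block gave 0 and 0 (6 and 2 over all genes). The same-numbered libraries correlated at -0.13 to 0.12 in their deviations, and at 0.55 for replicate 7, so the numbers were not taken as pairs. RLE scaling, library size alone, no filter and limma on FPKM gave 2 to 4 that rose and 0 that fell. The limma fits that required a mean of at least 1 FPKM tested 33 of the 51 and left out Lama4 (mean 0.688 FPKM). Scalings moved the median of all genes between -0.02 and 0.01 and left 43 or 44 of 51 positive.

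For 7 of the matrix and partner genes taken by the naming rule the log2 fold change turned sign, and the cause was not tested. The matrix genes outside that rule were not examined for such turns. Col25a1 (-0.05) was 0.0043 with library size alone, 0.50 with voom, 0.0062 with unfiltered FPKM plus 1, 0.056 with the replicate block, 0.33 in the class-adjusted fit and 0.50 among the shallower libraries. Col13a1 (0.04) was -0.027 among the shallower libraries. Mmp13 (-0.12) was 0.27 with voom and 0.17 among the shallower libraries. Adamtsl4 (-0.01) was 0.011 with upper-quartile scaling, 0.026 with FPKM plus 1 (filtered or not), 0.040 with FPKM plus 0.1 and 0.035 with the replicate block. With each library left out, Col13a1 ranged from -0.026 to 0.14, Col25a1 from -0.37 to 0.31, Mmp13 from -0.25 to 0.059, Mmp15 from -0.15 to 0.052, Mmp24 from -0.29 to 0.16, Adamts10 from -0.26 to 0.015 and Adamtsl4 from -0.12 to 0.11. Over the matrix and partner genes taken by the naming rule and all alternatives, 1344 results kept their direction and their side of the threshold. Another 89 passed newly, 60 lost their call and 35 turned sign. Counts under 10 in at least 1 library limit the precision of 10 of the 51 genes.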
